A study of Mus musculus with 18 samples.

Results

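The miR-181 family was followed by small RNA sequencing of mouse femoral condyle cartilage after the anterior cruciate ligament (ACL) had been torn by loading, a model of post-traumatic osteoarthritis. The family comprised 7 of the 1412 mature miRNAs in the count table, taken by name alone. From the 5' arms of the hairpins these were mmu-miR-181a-5p, mmu-miR-181b-5p, mmu-miR-181c-5p and mmu-miR-181d-5p, and from the 3' arms mmu-miR-181a-1-3p, mmu-miR-181a-2-3p and mmu-miR-181c-3p. The species prefix mmu is left out below. All 7 passed the filter on low counts, which kept 428 miRNAs. The mice were wild-type C57bl6, male and 12 weeks old. In the injured groups a single mechanical load ruptured the ACL of the right knee, and cartilage was collected at day 1 or day 7 (n = 3 libraries each). The unloaded left knees of the same groups were the contralateral controls at day 1 and day 7 (n = 3 each), and naïve mice, which were never loaded and which the labels place at day 7, gave a further control (n = 6). Comparisons of day 1 libraries with naïve ones therefore also cross the time points. Each library was a pool of several mice, drawn from 6 mice at day 1, 12 at day 7 and 6 naïve mice. The spread between libraries is therefore a spread between pools, and the 6 naïve pools must share mice. The study's supplement states that left and right knees were pooled apart. It adds that cartilage was partly lost at day 7, for which 4 mice went into a pool. The part of that loss in the day 7 results was not tested. The series text gives 4 mice in each pool. If that held at day 1, day 1 pools would share mice too, whereas smaller day 1 pools need not. Pool size may therefore differ between the groups compared. Which libraries share mice is not in the labels, so all were treated as independent. The 6 naïve libraries are not 6 independent sets of mice.

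MicroRNAs of the miR-181 family are small RNAs that pair with messenger RNAs mainly through the seed, the bases near the 5' end, and lower the output of their targets. The family is known for its part in lymphocyte development, where miR-181a tunes T cell receptor signalling, and its members are expressed in many other tissues, cartilage and endothelium included. The hairpin is cut into a 5p and a 3p strand, of which the 5p strand is the one usually kept in this family.

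The mature sequences are shown because the members differ by few bases, so that reads of one member can resemble another. They were taken from RefSeq for GRCm38.p6 and found for 7 of 7 members, written 5' to 3' with the seed (bases 2 to 8) in capitals.
mmu-miR-181a-5p: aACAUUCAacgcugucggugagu
mmu-miR-181b-5p: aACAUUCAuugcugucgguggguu
mmu-miR-181c-5p: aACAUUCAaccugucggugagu
mmu-miR-181d-5p: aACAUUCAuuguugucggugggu
mmu-miR-181a-1-3p: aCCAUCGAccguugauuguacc
mmu-miR-181a-2-3p: aCCACCGAccguugacuguacc
mmu-miR-181c-3p: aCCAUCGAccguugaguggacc
The 4 members from 5' arms shared the seed ACAUUCA, which no other of the 1679 mature miRNAs in that table carried. With positions counted from 1 at the 5' end, miR-181a-5p and miR-181b-5p were separated by A9U, C10U and A21G and by 1 extra base at the 3' end of miR-181b-5p. Between miR-181b-5p and miR-181d-5p there was 1 substitution, C12U, besides that extra base, and miR-181c-5p lacked the base at position 11 of miR-181a-5p. The 3' arms fell into 2 seeds: CCAUCGA in miR-181a-1-3p and miR-181c-3p, and CCACCGA in miR-181a-2-3p, through the substitution U5C. No pair of members had the same count in every library, so no member was a copy of another. How reads matching several members were shared is not given in the sources used here.

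The 7 members come from 3 loci with 6 hairpins, given here in GRCm38 with the GENCODE annotation. Mir181a-1 (chr1:137966455-137966541, plus strand) and Mir181b-1 (chr1:137966639-137966718, plus strand) lie in an exon of the long non-coding RNA A430106G13Rik, 97 bases apart. Mir181a-2 (chr2:38852735-38852810, plus strand) and Mir181b-2 (chr2:38853830-38853918, plus strand) lie opposite an intron of Nr6a1, 1019 bases apart. Mir181c (chr8:84178873-84178961, minus strand) and Mir181d (chr8:84178716-84178787, minus strand) lie in an intron of Nanos3, 85 bases apart. The mature miR-181a-5p is the product of both Mir181a hairpins, and miR-181b-5p of both Mir181b hairpins, so their counts do not tell the chromosome 1 and chromosome 2 loci apart, whereas the 3' arms miR-181a-1-3p and miR-181a-2-3p do.

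Libraries held between 758388 and 4088852 counts. Normalised abundance is given as CPM, the count in 1e+06 counts of a library whose size was scaled by the trimmed mean of M-values (TMM). Fold changes are from limma-voom fitted to all 18 libraries, with P-values adjusted over the 428 miRNAs of each comparison and a threshold of 0.05. TMM scales every library to a single reference library, here naïve replicate 4, and the reference changed in 17 of the 18 fits that left out 1 library, in which 426 to 454 miRNAs were tested. Those fits were therefore also run with the scaling and the 428 miRNAs of all libraries kept, and the fit to all libraries with each of the 18 as reference, both chosen after seeing the data. The cartilage label was checked against miRNAs of several tissues. The cartilage miRNA miR-140-3p was at 2082 to 3249 CPM across libraries, and the skeletal muscle miRNA miR-1a-3p at 50863 to 267895 CPM, so a miRNA known from muscle was abundant in every library. In such bulk samples, fewer cells of a type and less of a miRNA per cell cannot be told apart.

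In naïve cartilage the family was dominated by miR-181a-5p, which ranked 13 of the 428 miRNAs by abundance, at 14979 ± 2697 CPM (SD, n = 6). miR-181b-5p followed at 3358 ± 446 CPM and miR-181d-5p at 426 ± 21.5 CPM, and these 3 members kept this order in 18 of 18 libraries. The 3' arms of miR-181a came next, with miR-181a-1-3p at 80.4 ± 12.5 CPM and miR-181a-2-3p at 77.4 ± 18.2 CPM. Their naïve ranges overlapped, and miR-181a-1-3p was the higher of the pair in 11 of 18 libraries. miR-181c-5p was at 48.4 ± 6.71 CPM, overlapping the range of miR-181a-2-3p, and miR-181c-3p was the lowest at 19.0 ± 1.95 CPM. The least covered member, miR-181c-3p, rested on 9 to 66 counts per library, against 7387 to 70885 for miR-181a-5p. The family took between 0.880% and 3.57% of all counts in a library, and miR-181a-5p supplied 73.4% to 82.4% of the family's counts. The other arms of the same hairpins were near the limit of detection, with at most 12 counts of miR-181b-1-3p, 5 of miR-181b-2-3p and 2 of miR-181d-3p in a library.

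At day 7 after ACL rupture, injured cartilage was compared with naïve cartilage to ask which miRNAs responded to joint injury. miR-181a-5p fell 1.72-fold and miR-181d-5p fell 1.53-fold, and the other 5 members had negative log2 fold changes that did not pass the test. For miR-181a-5p, the naïve libraries had a lowest value of 12483 CPM, a median of 13963 CPM and a highest of 19662 CPM. The day 7 injured libraries had 10144, 9438 and 6842 CPM of miR-181a-5p. All 3 were thus under every naïve library, and the fall was -0.78 on the log2 scale (SE 0.22, adjusted P = 0.0154). For miR-181d-5p, naïve libraries had 399 CPM at the lowest, 427 at the median and 456 at the highest, and the injured libraries 283, 293 and 261 CPM. The groups again did not overlap, with a log2 fold change of -0.61 (SE 0.20, adjusted P = 0.0412). Over all 428 miRNAs 18.2% passed in this comparison, with 3.74% lower, as did 2 of 7 family members. At an unadjusted P under 0.05, limma-voom had 3 of 7 members and 26.9% of all miRNAs. With day 7 injured replicate 3, the library lowest in miR-181a-5p, left out, that member no longer passed (-0.58, adjusted P = 0.178, and -0.60, adjusted P = 0.171, with the scaling kept). It passed with each of the 18 libraries as TMM reference. The miR-181d-5p call was lost in 15 of the 18 fits that left out 1 library, with adjusted P between 0.0192 and 0.212. It was lost in 9 of 18 with the scaling kept, held with 10 of 18 TMM references (adjusted P 0.0185 to 0.0745), and was lost under 3 of 8 other settings, library totals alone among them (adjusted P = 0.106).

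**Figure D1:**
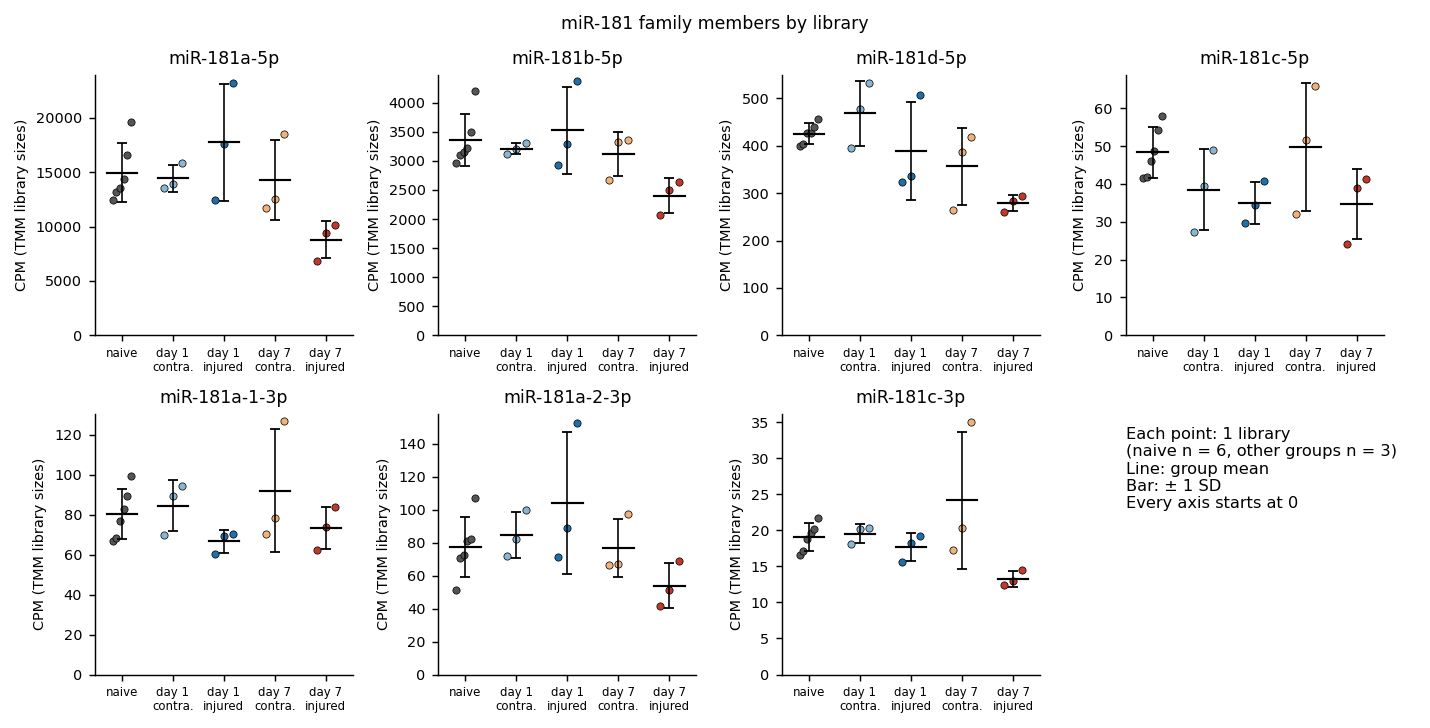
Abundance of each miR-181 member in CPM (vertical axes, from 0) in naïve (n = 6), day 1 contralateral, day 1 injured, day 7 contralateral and day 7 injured libraries (n = 3 each). Points are libraries, lines group means and bars 1 SD; the 3 day 7 injured libraries lie under all 6 naïve libraries for 5 members, and overlap them for miR-181a-1-3p and miR-181a-2-3p.

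miR-181b-5p, which shares the seed of both, lay just outside the threshold. Its naïve libraries ran from 2972 CPM through a median of 3187 to 4196 CPM, and the day 7 injured libraries had 2634, 2506 and 2070 CPM. These values did not overlap either, and the log2 fold change was -0.49 (SE 0.18, 95% limits -0.87 and -0.11, adjusted P = 0.0739). The scarcer seed partner miR-181c-5p had injured values of 41.2, 38.9 and 24.2 CPM against 41.5 to 58.1 in naïve cartilage. The highest injured and the lowest naïve library were nearly level, and the log2 fold change of -0.55 had limits of -1.11 and 0.02 (adjusted P = 0.215). Without day 7 injured replicate 3, its lowest library, it was -0.24 (adjusted P = 0.797), and -0.26 with the scaling kept.

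Among the 3' arms, miR-181c-3p was at 12.4, 14.5 and 12.9 CPM in day 7 injured cartilage and at 16.6 to 21.7 CPM in naïve cartilage, without overlap. Its log2 fold change was -0.50 (95% limits -1.04 and 0.04, adjusted P = 0.235). miR-181a-2-3p, the strand from the chromosome 2 locus, had 68.7, 41.6 and 51.5 CPM against a naïve range of 51.2 to 107 CPM, with a log2 fold change of -0.55 (limits -1.13 and 0.03, adjusted P = 0.218). miR-181a-1-3p, from the chromosome 1 locus, was the member with the smallest difference. Its injured libraries had 83.8, 73.7 and 62.4 CPM, of which only the last lay under the naïve range of 66.6 to 99.0 CPM, and its log2 fold change of -0.14 had limits of -0.61 and 0.33 (adjusted P = 0.739). In all, 5 of 7 members had injured libraries under every naïve library, where 8.64% of all 428 miRNAs did. The median log2 fold change of the 7 members was -0.55, beside -0.00 over all miRNAs tested.

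Other cell types were represented in the same libraries. The miRNAs of the erythroid list (7 arms, from the hairpins of miR-486a, miR-486b, miR-144 and miR-451a, of which 6 are distinct in counts) summed to 6510 to 9054 CPM in naïve libraries and to 3390 to 4521 CPM in day 7 injured libraries. Of its 7 tested arms 4 fell, all of them miR-486a or miR-486b, and miR-486a-5p by 1.22 on the log2 scale (adjusted P = 0.000673). No arm of miR-451a or miR-144 passed. miR-451a ran from 684 to 2010 CPM in naïve and from 780 to 1269 CPM in day 7 injured libraries, which overlapped. From the leukocyte list 1 of 8 tested arms fell, miR-150-5p, a miRNA of mature lymphocytes, by 2.91-fold (adjusted P = 0.00317), while the sum of the list, at 8234 to 9685 CPM, lay within the naïve range of 6652 to 11224 CPM. None of 6 vascular, 7 skeletal muscle or 4 cartilage arms tested passed, and their day 7 injured sums were 74464 to 81107, 69629 to 133911 and 6754 to 9979 CPM, against naïve ranges of 48395 to 83524, 67509 to 198880 and 6169 to 10495 CPM. In the same order, the median log2 fold changes of these lists were 0.18, -0.53 and 0.20. They were -1.10 for the erythroid list, -0.11 for the leukocyte list and -0.00 over all miRNAs. The erythroid median was the value of miR-486b-3p, as 4 of the 7 arms were of miR-486a or miR-486b. The defining markers miR-451a, miR-126a-3p, miR-1a-3p, miR-140-3p and miR-223-3p were above 0 in every library. Of the listed markers, 2 muscle arms in naïve and 2 in day 7 injured cartilage, and 1 leukocyte arm in naïve cartilage, had no count in any library of the group. The part of erythroid, lymphoid and skeletal muscle RNA in the lower miR-181 levels was not tested.

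Against the contralateral knees of day 7, all 7 members had negative log2 fold changes and 0 passed in limma-voom, edgeR or DESeq2, while 14.7% of all miRNAs passed in limma-voom and 0.935% were lower. Without adjustment, 2 of 7 members had P under 0.05 in limma-voom, beside 23.1% of all miRNAs. The injured and contralateral knees are those of the same mice, and the libraries were treated as independent because the labels do not say which come from the same mice. The day 7 contralateral libraries had 11722, 18486 and 12565 CPM of miR-181a-5p, all above the injured ones, and the log2 fold change was -0.71 (SE 0.25, 95% limits -1.24 and -0.18, adjusted P = 0.0656). In fits without 1 library this value ran from -0.82 to -0.46, with adjusted P of 0.0345 to 0.408. It passed without contralateral replicate 1 (-0.78, adjusted P = 0.0345) or replicate 3 (-0.82, adjusted P = 0.0470), and was -0.46 (adjusted P = 0.256) without contralateral replicate 2 and -0.50 (adjusted P = 0.408) without day 7 injured replicate 3. With the scaling kept it passed in 3 of these 18 fits, without contralateral replicate 1 or day 1 injured replicate 1 or 2, and it passed with 3 of 18 TMM references. miR-181c-3p had 35.01, 17.2 and 20.4 CPM in the contralateral libraries, and its log2 fold change was -0.72 (limits -1.31 and -0.12, adjusted P = 0.108). Contralateral replicate 1 stood above every other library for miR-181c-3p, as it did for miR-181a-1-3p (127 CPM) and miR-181c-5p (65.9 CPM). Without it, the log2 fold change of miR-181c-3p was -0.38, and -0.45 with the scaling kept. Without contralateral replicate 2 and with the scaling kept, miR-181c-3p passed (-0.94, adjusted P = 0.0379). miR-181b-5p also separated, with 2675 to 3355 CPM against at most 2634 CPM, and its log2 fold change was -0.39 (limits -0.82 and 0.04, adjusted P = 0.266). In this comparison 3 of 7 members did not overlap, beside 9.11% of all miRNAs in the lower direction. For the remaining members, log2 fold changes ran from -0.29 for miR-181a-1-3p to -0.56 for miR-181a-2-3p, with adjusted P of 0.311 to 0.562. The erythroid sum was 6049 to 9079 CPM and the skeletal muscle sum 136684 to 249899 CPM in these contralateral libraries, both above the day 7 injured values, and 2 of 7 erythroid arms (miR-486a-5p and miR-486b-5p) and 0 of 7 muscle arms passed as lower. Most arms of the erythroid list were of miR-486a or miR-486b. Median log2 fold changes were -0.89 for the erythroid and -0.89 for the muscle list, beside -0.05 over all miRNAs. They were -0.21, -0.11 and 0.38 for the leukocyte, vascular and cartilage lists. miR-451a, at 1146 to 3041 CPM in these contralateral libraries, overlapped the day 7 injured ones. The part of erythroid and muscle RNA in the lower miR-181 values was not tested.

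**Figure D2:**
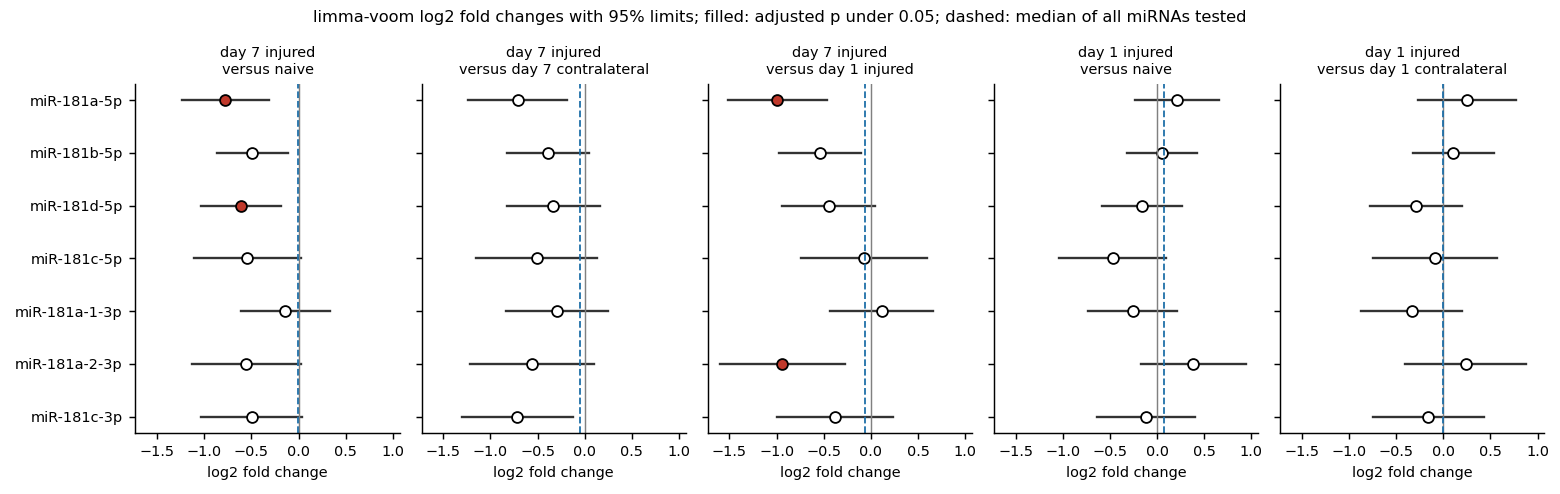
Log2 fold changes of the 7 members (horizontal axes) in 5 comparisons, with 95% limits; filled points passed the threshold, and the dashed line is the median of all 428 miRNAs. The day 7 injured points lie left of 0 in the first and second comparison, whereas at day 1 the members lie on both sides of 0 with limits that include it.

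At day 1 after rupture no member differed detectably from its controls. Against naïve cartilage 4 members had negative and 3 positive log2 fold changes, 0 of 7 passed, and 0% of all miRNAs passed (8 of 428 had an unadjusted P under 0.05 in limma-voom, and none of these was a family member). The edgeR and DESeq2 tests also called 0 miRNAs, with 6 and 5 at an unadjusted P under 0.05. The day 1 injured libraries had 12491, 23183 and 17561 CPM of miR-181a-5p, a range that spanned nearly all of the naïve values, and the log2 fold change was 0.21 (SE 0.22, limits -0.24 and 0.66, adjusted P = 0.992). Replicate 2 of these libraries held the highest miR-181a-5p and miR-181b-5p values of all 18, and without it the log2 fold change of miR-181a-5p was -0.07, and 0.0051 with the scaling kept. The extremes were miR-181a-2-3p at 0.39 (71.0, 88.8 and 152 CPM) and miR-181c-5p at -0.47 (40.7, 34.3 and 29.6 CPM), whose injured libraries lay just under the naïve ones. That made 1 of 7 members without overlap in the lower direction, beside 0.935% of all miRNAs.

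Against the day 1 contralateral knees, log2 fold changes ran from -0.33 for miR-181a-1-3p to 0.25 for miR-181a-5p, with 0 of 7 members and 0% of all miRNAs called (8 at an unadjusted P under 0.05 in limma-voom, 11 in edgeR and 9 in DESeq2) and adjusted P of 0.997 throughout. The contralateral libraries had 13884, 13574 and 15890 CPM of miR-181a-5p. No member was without overlap in the lower direction, as against 6.31% of all miRNAs.

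Within the injured knees, day 7 was compared with day 1. miR-181a-5p fell 1.99-fold, a log2 change of -0.99 (SE 0.25, adjusted P = 0.00851), with 6842 to 10144 CPM at day 7 against 12491 to 23183 CPM at day 1. miR-181a-2-3p fell 1.92-fold (log2 change -0.94, SE 0.32), with the adjusted P of 0.04998 at the threshold itself. That call held with 1 of the 18 libraries as TMM reference, naïve replicate 4, and with the factors averaged over every reference the log2 change was -0.87 (adjusted P = 0.0714). Its day 7 libraries of 41.6 to 68.7 CPM lay just under the lowest day 1 library at 71.0 CPM. miR-181a-1-3p, the 3' arm of the other Mir181a hairpin, had a log2 difference of 0.12 (limits -0.43 and 0.66, adjusted P = 0.832), with overlapping libraries. Thus 2 of 7 members fell, where 15.7% of all miRNAs passed and 3.5% were lower, and 3 of 7 had an unadjusted P under 0.05 in limma-voom beside 27.6% of all miRNAs. That background depended on the scaling: 52 miRNAs rose and 15 fell under TMM, and 49 rose and 3 fell on library totals alone, where neither member passed. miR-181b-5p was at -0.54 (limits -0.98 and -0.11, adjusted P = 0.0928) and miR-181d-5p at -0.45 (adjusted P = 0.231), both without overlap between the days. Without day 1 injured replicate 2, miR-181b-5p was at -0.27 (adjusted P = 0.518) and miR-181d-5p at -0.13 (adjusted P = 0.814), or at -0.38 and -0.24 with the scaling kept. With the scaling kept, miR-181b-5p passed without day 7 contralateral replicate 1 (-0.54, adjusted P = 0.0454). miR-181c-3p was at -0.38 (adjusted P = 0.448) and miR-181c-5p at -0.07 (limits -0.74 and 0.59). With day 1 injured replicate 2 left out, miR-181a-5p was at -0.67 (adjusted P = 0.0974), and with day 7 injured replicate 3 left out at -0.70 (adjusted P = 0.132), neither of which passed. With the scaling kept these were -0.78 (adjusted P = 0.0583) and -0.81 (adjusted P = 0.0792), while miR-181a-5p passed with each of the 18 TMM references (adjusted P 0.00560 to 0.0223). miR-181a-2-3p no longer passed in 17 of 18 fits that left out 1 library, and in 12 of 18 with the scaling kept. Between the days 5 of 7 members did not overlap, beside 15.7% of all miRNAs.

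The erythroid sum moved in this comparison too, from 6522 to 10677 CPM at day 1 to 3390 to 4521 CPM at day 7, and the same 4 arms of miR-486a and miR-486b passed. The erythroid miR-451a did not pass, and its libraries overlapped, with 988 to 2074 CPM at day 1 and 780 to 1269 CPM at day 7. miR-150-5p was lower by 2.89-fold (adjusted P = 0.0123) and the muscle strand miR-133a-5p by 2.67-fold (adjusted P = 0.0453), while the cartilage miRNA miR-455-5p rose 2.01-fold (adjusted P = 0.0277). Their part in the miR-181 result was not tested.

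The difference between the injury effect at day 7 and that at day 1, each against its contralateral knees, was tested as an interaction. For miR-181a-5p it was -0.96 on the log2 scale (SE 0.35, limits -1.70 and -0.22), which did not pass over all miRNAs (adjusted P = 0.139). With the scaling kept it passed without day 1 injured replicate 1 (-1.19, adjusted P = 0.0475). miR-181a-2-3p was at -0.80 (limits -1.72 and 0.13, adjusted P = 0.385), miR-181a-1-3p at 0.04 and miR-181d-5p at -0.04. None of 7 members was called in limma-voom, edgeR or DESeq2, and 1 had an unadjusted P under 0.05 in limma-voom, beside 16.4% of all miRNAs. Over all miRNAs 6.78% were called, all of them in the higher direction. The injury effects on the family at day 7 and day 1 were thus not shown to differ.

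The uninjured groups did not differ detectably for any member. Day 7 contralateral against naïve cartilage gave log2 differences from -0.28 for miR-181d-5p to 0.22 for miR-181c-3p, day 1 contralateral against naïve from -0.38 for miR-181c-5p to 0.15 for miR-181a-2-3p, and day 7 against day 1 contralateral from -0.40 for miR-181d-5p to 0.35 for miR-181c-5p. In these comparisons limma-voom called 0 of 7 members and 0% of all miRNAs, with 23 (5.37%), 4 (0.935%) and 25 (5.84%) of 428 miRNAs at an unadjusted P under 0.05 and no family member among them. edgeR called 0 miRNAs in each, and DESeq2 1, 0 and 2, again without a family member. For miR-181a-5p, the 95% limits reached from -0.51 to 0.38, from -0.49 to 0.41 and from -0.55 to 0.48, so changes inside these limits were not excluded.

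Ratios within a library do not depend on its scaling and show how the members moved against each other. miR-181b-5p counts per miR-181a-5p count ran from 0.190 to 0.249 in naïve libraries and were 0.260, 0.266 and 0.303 in day 7 injured libraries. The injured libraries lay above every naïve and day 1 library, but 1 day 7 contralateral library, at 0.265, lay among them. miR-181d-5p per miR-181b-5p was 0.107 to 0.126 in day 7 injured libraries, inside the naïve range of 0.109 to 0.137 but for its lowest value. The share of miR-181a-5p in the family's counts was 73.4% to 76.5% in day 7 injured libraries and 76.9% to 81.4% in naïve libraries. In day 7 contralateral libraries it was 76.0% to 82.4%, and replicate 3, at 76.0%, lay inside the injured range.

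**Figure D3:**
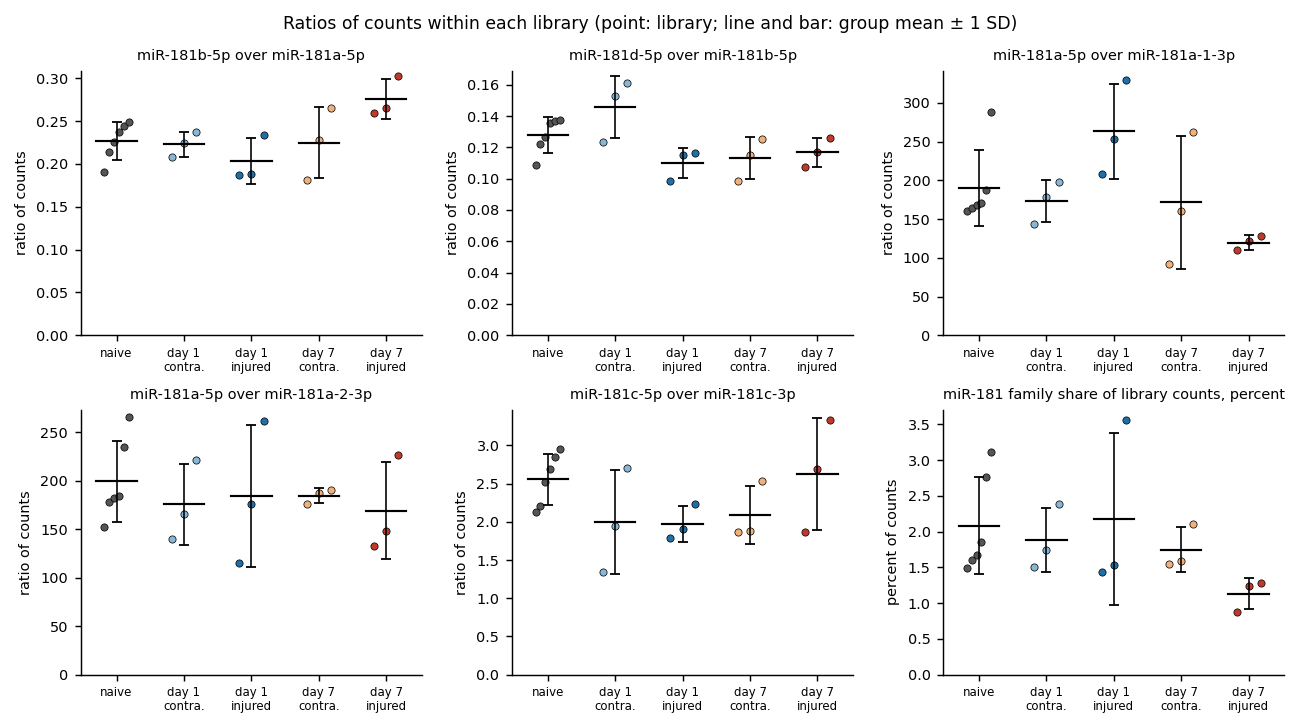
Ratios of counts between miR-181 members, and the family's share of all counts in percent, by library (vertical axes, from 0), with group mean and 1 SD. miR-181a-5p counts per miR-181a-1-3p count were 110 to 128 in day 7 injured libraries against 161 to 288 in naïve libraries, and 1 day 7 contralateral library was lower still at 92.3.

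The strands of the hairpins were also set side by side. miR-181a-5p counts per miR-181a-1-3p count were 121, 128 and 109.6 in day 7 injured libraries, lower than in every naïve library (161 to 288) and every day 1 library (144.1 to 329.6). The day 7 contralateral libraries spread from 92.3 to 262.5, on both sides of the injured ones. miR-181a-5p per miR-181a-2-3p, in contrast, was 132.96, 147.7 and 226.8 in day 7 injured libraries and 152 to 265 in naïve libraries, which overlapped. The ratio of the 3' strands to each other, miR-181a-1-3p per miR-181a-2-3p, was 0.455 to 0.846 at day 1 and 1.21 to 1.77 at day 7 in injured knees, without overlap, but 0.638 to 1.62 in naïve cartilage. For the third locus, miR-181c-5p per miR-181c-3p was 1.87 to 3.33 in day 7 injured and 2.12 to 2.95 in naïve libraries. These ratios are descriptions and were not tested.

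Across the 18 libraries, log2 CPM of miR-181a-5p followed that of miR-181b-5p closely (Pearson r = 0.93, Spearman rho = 0.88), and r was 0.85 on deviations from the group means. With miR-181d-5p r was 0.70, and with miR-181a-2-3p 0.69, but with miR-181a-1-3p 0.03 and with miR-181c-5p 0.07. Members that shared a locus were therefore not always alike: miR-181a-5p and miR-181b-5p, which lie together at both loci, were, and miR-181c-5p and miR-181d-5p, with r = 0.19, were not. The lower counts of miR-181c and the 3' arms carry more counting error, and points of 1 group share their treatment, so these values are descriptions.

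Outside the family, the pattern of miR-181a-5p was compared with that of every tested miRNA over the same 18 libraries by Pearson r on log2 CPM. Most like it were miR-486a-5p and miR-486b-5p, which had identical counts and are 1 measurement (r = 0.91, rho = 0.85), then miR-139-5p (r = 0.86), miR-130b-5p (r = 0.85) and miR-30d-5p (r = 0.85). Without the 3 day 7 injured libraries, r was 0.77 for miR-486a-5p, 0.85 for miR-139-5p, 0.87 for miR-130b-5p and 0.55 for miR-30d-5p. miR-486a-5p ran from 3935 to 6936 CPM in naïve cartilage and from 1689 to 2505 CPM in day 7 injured cartilage. miR-30d-5p was at 7390 to 8314 CPM and 4480 to 5470 CPM in the same groups, and its fall of -0.62 on the log2 scale passed (adjusted P = 0.00388), whereas miR-139-5p at -0.72 (adjusted P = 0.185) and miR-130b-5p at -0.68 (adjusted P = 0.267) did not pass. Least like miR-181a-5p were miR-21a-5p (r = -0.90), a miRNA known to rise in wounds and fibrosis, miR-379-5p (r = -0.86) of the imprinted cluster on chromosome 12, and miR-455-5p (r = -0.83), which is expressed in chondrocytes. miR-21a-5p had 3097 to 9471 CPM in naïve and 19829 to 30644 CPM in day 7 injured libraries.

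**Figure D4:**
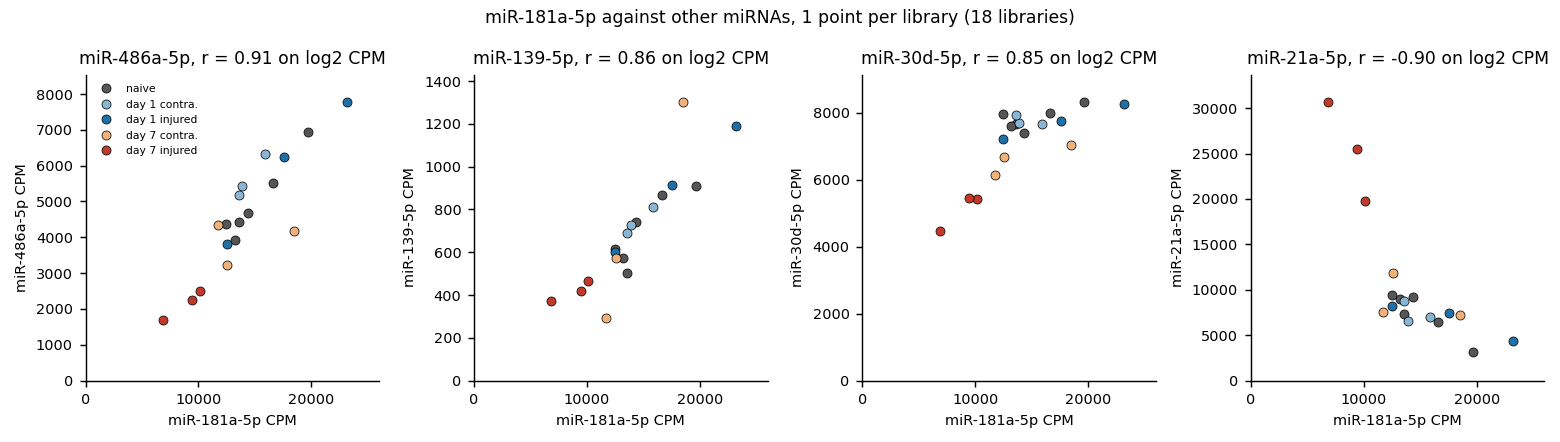
CPM of miR-181a-5p (horizontal axes) against CPM of miR-486a-5p, miR-139-5p, miR-30d-5p and miR-21a-5p (vertical axes), 1 point for each of 18 libraries, coloured by group. The 3 day 7 injured libraries have the lowest miR-181a-5p in each panel, the lowest miR-486a-5p and miR-30d-5p and the highest miR-21a-5p.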

How the data were processed

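Small RNA libraries from pooled femoral condyle cartilage were analysed from the deposited raw counts of mature miRNAs, which carry no normalisation. The authors, as their methods state, trimmed reads with Trim Galore 0.6.6, aligned them to mature miRBase sequences with Bowtie 1.3.0 in a pipeline set to GRCm38, and counted alignments with SAMtools 1.12. Groups came from the treatment labels. Entries of the table were assigned through the library number that they share with the sample titles, with no further identifier to check it. Replicates were numbered in accession order.

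Counts were filtered with filterByExpr of edgeR 4.0.16 (minimum count 10, minimum total 15), scaled by TMM, and fitted with limma 3.58.1 (voom, lmFit, eBayes) in R 4.3.3, with 1 mean per group over all 18 libraries and Benjamini-Hochberg adjustment within each of 9 contrasts. The study's correction for libraries of a shared pool was not used, because the labels do not name the pools. edgeR's quasi-likelihood test and DESeq2 1.42.0 were alternatives, as were other scalings, filters and quality weights, leaving out each library, and, added later, other TMM references and leaving out each library with the scaling kept. CPM used TMM library sizes, and log2 CPM for correlations took a prior count of 2. The fit was tested on simulated data. Replicates differed beyond sampling noise (chi-square per degree of freedom at least 25.4), so no library was counted as a duplicate. Totals of 758388 to 4088852 counts set the precision of low members, and PCR copies are not independent molecules. All 7 members were named in every comparison, with the 5 miRNAs most like miR-181a-5p, the 3 least like it, and called members of the tissue lists. The members and lists were chosen with earlier results of these data known.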

Additional observations from a re-analysis of the deposited data

Results flagged for a closer look

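The ratio of miR-181a-5p counts to miR-181a-1-3p counts was 288 in naïve replicate 3, whereas the other 5 naïve libraries lay between 161 and 188. The gap to the nearest library was 0.792 of the group's whole range, above Dixon's critical value for 6 samples. The same library had the highest miR-181a-5p value (19662 CPM) of the naïve group and one of the lower miR-181a-1-3p values (68.2 CPM). Of 17 naïve quantities examined in this way only this 1 stood out, and chance marks about 1 group in 20.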

How the results depend on the processing

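All 7 log2 fold changes of day 7 injured against naïve cartilage stayed negative under all 8 settings (7 for miR-181c-3p, which the filter of 10 counts in every library removes) and in all 18 fits without 1 library, and miR-181a-5p passed under all 8 settings (-0.91 to -0.65, adjusted P 0.00231 to 0.0463; -0.83 to -0.58 without 1 library). The number of members called there was 2, but 1 on library totals alone, 1 with every miRNA kept, 1 with at least 10 counts required in every library, 3 with DESeq2 and 4 with quality weights, and 0 to 3 without 1 library. Over all miRNAs the count was 78, but 48 with the stricter filter and 135 with quality weights, and 65 to 97 under the other 6 settings. Lower calls over all miRNAs numbered 16 (3.74%) in the main fit, 19 (4.44%) with DESeq2 and 55 (12.9%) with quality weights. miR-181d-5p was at -0.75, -0.65 and -0.58 (adjusted P 0.106, 0.207 and 0.0672) under the settings that lost it, and at -0.63 to -0.54 without 1 library. miR-181b-5p passed with DESeq2 (adjusted P = 0.0400) and with quality weights (adjusted P = 0.0142), as did miR-181c-3p with the latter (adjusted P = 0.0290). Against day 7 contralateral cartilage 0 members were called, but 1 with quality weights (miR-181a-5p, adjusted P = 0.0210) and 0 to 1 without 1 library, and 63 miRNAs in all, but 38 with the stricter filter and 49 to 73 under the other 7 settings. Against day 1 injured cartilage 2 members were called, but 1 with DESeq2 size factors, 0 on library totals, 1 with every miRNA kept, 1 with the stricter filter and 1 with only the groups compared, and 0 to 2 without 1 library. Over all miRNAs that count was 67, but 44 with the stricter filter and 109 with quality weights, and 52 to 76 under the other 6 settings. With TMM factors averaged over every reference library, chosen after seeing the data, 1 member was called there, and miR-181a-2-3p was at -0.87 (adjusted P = 0.0714). In that comparison miR-181a-5p was at -0.91 (adjusted P = 0.0925) on library totals and at -1.08 to -0.67 without 1 library. miR-181a-2-3p was at -0.90, -0.87, -0.97, -0.87 and -0.90 (adjusted P 0.0651 to 0.174) in the 5 settings above, in their order, and at -1.03 to -0.50 without 1 library. DESeq2 called 1 miRNA in day 7 contralateral against naïve cartilage and 2 against day 1 contralateral cartilage, where limma-voom called 0.

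Signs turned for the following values, none of which was called; ranges without 1 library span fits with the scaling redone and kept. miR-181c-5p in day 7 against day 1 injured cartilage was at 0.029 on library totals, 0.012 with the stricter filter and -0.21 to 0.32 without 1 library. The interaction for miR-181a-1-3p was at -0.017 with every miRNA kept, -0.020 with DESeq2 and -0.018 with only the groups compared, and at -0.13 to 0.39 without 1 library. That for miR-181d-5p ran from -0.24 to 0.16 without 1 library in the fits with the scaling kept. miR-181c-3p in day 7 contralateral against naïve cartilage was at -0.016 with quality weights and -0.071 to 0.445 without 1 library. Without 1 library, ranges also crossed 0 for miR-181a-1-3p in day 7 injured against contralateral cartilage (-0.46 to 0.026), miR-181a-2-3p in day 1 contralateral against naïve cartilage (-0.039 to 0.26), and miR-181a-5p (-0.075 to 0.44) and miR-181a-2-3p (-0.0077 to 0.63) in day 1 injured against naïve cartilage. Leaving out a library with the scaling and miRNAs of all libraries kept separates the library from the change of TMM reference. The day 7 injured against day 1 injured values then ran from -1.22 to -0.78 for miR-181a-5p and from -1.18 to -0.62 for miR-181a-2-3p, and the values against naïve cartilage from -0.88 to -0.60 for miR-181a-5p and from -0.65 to -0.56 for miR-181d-5p. The members called in such fits numbered 0 to 3 against naïve, 0 to 1 against contralateral and 0 to 3 against day 1 injured cartilage, and 0 to 1 in the interaction. The cause of the other changes was not tested.

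Library totals in place of TMM moved the median of all miRNAs to -0.13 in day 7 injured and to -0.15 in day 1 injured against naïve cartilage. No paired analysis was possible because the labels carry no replicate numbers and do not say which libraries come from the same mice. Groups of 3 libraries and counts as low as 9 limit what could be seen for miR-181c and the 3' arms.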
